A study of Mus musculus with 36 samples.

Results

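The comparison described here set Tet1 knockout (KO) embryos whose dams ate an excess of folic acid (FA), 30 ppm, against KO embryos whose dams ate the control diet, 3 ppm. Members were chosen by their labels only: of 36 libraries in the series, the 5 labelled KO and 3 ppm were taken, and the 5 labelled KO and 30 ppm that remain when the library labelled KO 30 ppm replicate 1 is left out. That library was left out because its genotype is in doubt, and it entered only as an alternative. Each library is the brain of 1 embryo at E11.5, taken from the front of the forebrain to the end of the hindbrain. 5-methylcytosine (5mC) was read by oxidative bisulfite treatment of a reduced representation of the genome (RRBS), so that oxidised forms of 5mC do not count as methylation.

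All 10 embryos were of the 129S6.cg strain and homozygous for the Tet1 tm1Koh allele. The allele carries an inserted cassette at the first coding ATG, which removes the full-length protein, and transcripts of a shorter isoform may persist. The allele is present in every cell of the embryo. The dams were HET, and both diets contained 1% succinylsulfathiazole, an antibiotic that limits folate made by gut bacteria, so all 10 embryos share this exposure. Each diet had 4 litters, and no litter occurs on both diets, so an effect of litter and an effect of diet cannot be told apart. Each group held 2 embryos labelled female and 3 labelled male. By phenotype label the 30 ppm group had 2 embryos labelled norm, 2 NTD (neural tube defect) and 1 inHB, and the 3 ppm group 3 norm, 1 NTD and 1 inHB. The abbreviation inHB is not spelled out in the labels. Replicate numbers, given in order of deposit, only name the embryos. On 30 ppm, replicates 2 and 3 were labelled NTD, replicate 4 inHB, and replicates 5 and 6 norm, with replicates 4 and 5 littermates. On 3 ppm, replicates 1, 2 and 3 were labelled norm, replicate 4 inHB and replicate 5 NTD, with replicates 1 and 2 littermates.

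TET1 is a dioxygenase that oxidises 5mC in DNA, a step towards its replacement by unmodified cytosine, and it is best known at CpG-rich promoters and at enhancers of developmental genes. Folate carries the one-carbon units from which S-adenosylmethionine, the methyl donor of the DNA methyltransferases, is made. Closure of the cranial neural tube depends on both, and a failure of closure is seen in the mouse as exencephaly. The comparison asks whether a maternal diet with more FA than the control diet goes with a different methylome where TET1 is missing.

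The genotype labels were checked at a CpG in an intron of Tet1 (GRCm38, chromosome 10, position 62884019), the CpG of 124 in the gene that best separated the KO embryos on 0.1 ppm FA from the WT embryos on 3 ppm, libraries outside this comparison. Its methylation level was 82.6, 88.9, 100, 77.8 and 85% in the 30 ppm embryos and 72.2, 91.7, 72, 93.8 and 80% in the 3 ppm embryos. In 4 WT embryos on 3 ppm it lay between 0 and 7.32%, and the 2 WT embryos on 0.1 ppm read 6.25 and 40%. HET embryos read 8.33 to 28.6% on 30 ppm (n = 5), 30 to 47.4% on 3 ppm (n = 3) and 32 to 69.2% on 0.1 ppm (n = 3), so this CpG sets KO apart from WT more clearly than from HET. The library labelled KO 30 ppm replicate 1 read 45% there. The 10 libraries held 25.6 to 47.7 M CpG calls on 30 ppm and 25.9 to 42.6 M on 3 ppm, and the mean coverage of a listed CpG lay between 12.1 and 19.3 reads. Sex labels matched the chromosome Y reads in 10 of 10 libraries. KO 3 ppm replicate 4, labelled male, had the fewest such reads of the males compared, 471 per M against 600 to 870. Its mean chromosome X methylation was 58.5%, against 48.4 to 51.9% in the other males and 60.7 to 63.2% in the females. HET 3 ppm replicate 1, labelled male, had 90.4 chromosome Y reads per M and 62.2% on chromosome X, near the female values. It was kept among the HET embryos. WT 30 ppm replicate 3, labelled male, had 335 chromosome Y reads per M and 38.8% on chromosome X, below every other library. It was kept among the WT embryos, and the WT values on 30 ppm below rest in part on it. The causes were not tested. Only methylation was measured, so the tissue could not be checked by the expression of marker genes. No library is a copy of another, since the chi-square per tile between any 2 of them was 1.41 to 1.70 times that of sampling noise.

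Methylation was slightly lower on 30 ppm FA over the CpGs shared by all embryos, but not beyond the spread between embryos. With equal weight for each of the 1095974 autosomal CpGs that had at least 5 reads in all 10 embryos, the mean methylation level on 30 ppm was 37.41, 37.58, 37.73, 37.76 and 37.56% in replicates 2 to 6. On 3 ppm it was 37.96, 38.62, 37.79, 38.04 and 37.49% in replicates 1 to 5. The groups overlapped, because replicate 5 of the 3 ppm group lay within the 30 ppm range, and replicate 2 of the 3 ppm group was the highest of the 10. The difference was -0.370 points, with a 95% interval from -0.841 to 0.0271 (p = 0.0873 in a two-sided exact permutation test over the embryos, from which every exact p below comes). All 19 autosomes had a lower mean on 30 ppm, by -0.418 to -0.323 points, although the autosomes of an embryo are not independent of each other. Without replicate 5 of the 3 ppm group the difference was -0.492 points and p was 0.00794 by the same exact test. Without replicate 2 of that group it was -0.210 points. The direction turned, to +1.01 points (exact p = 0.571), when every CpG an embryo had covered was used rather than the shared set.

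In points, the difference was largest at CpGs of low and middle methylation, though the classes were not tested against each other. CpGs were put into classes by their level in the WT embryos on 3 ppm, which are not part of the comparison. In the class of 10 to under 30% in WT (23797 CpGs), the 30 ppm embryos read 37.37, 37.72, 37.07, 36.18 and 37.18%. The 3 ppm embryos read 38.68, 40.80, 38.14, 39.05 and 37.48% there. Both groups thus lay above the WT range of this class, and 4 of 5 embryos on 30 ppm lay below every embryo on 3 ppm. The group means were 37.1% ± 0.570 and 38.8% ± 1.25 (SD, n = 5 each), a difference of -1.72 points (exact p = 0.0159, adjusted p = 0.0882 over the family of 20 embryo-level tests). In the class of 30 to under 70% (61321 CpGs) the means were 67.7% ± 0.361 and 69.2% ± 1.21, a difference of -1.48 points (exact p = 0.0238, adjusted p = 0.0882). Highly methylated CpGs differed less in points. The class of 70 to under 90% (167476 CpGs) differed by -0.734 points (exact p = 0.111, adjusted p = 0.183) and the class of 90% or above (188765 CpGs) by -0.374 points (exact p = 0.254, adjusted p = 0.299). The largest class, 612986 CpGs under 10% in WT, averaged 1.84% ± 0.0344 and 1.93% ± 0.160, a difference of -0.0933 points (exact p = 0.143, adjusted p = 0.190), which was -0.0231 points without replicate 2 of the 3 ppm group. None of the 20 tests passed the correction with all 10 embryos. With replicate 5 of the 3 ppm group left out, 16 of 20 had an adjusted p under 0.05, and 0 of 20 with any other embryo left out.

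**Figure D1:**
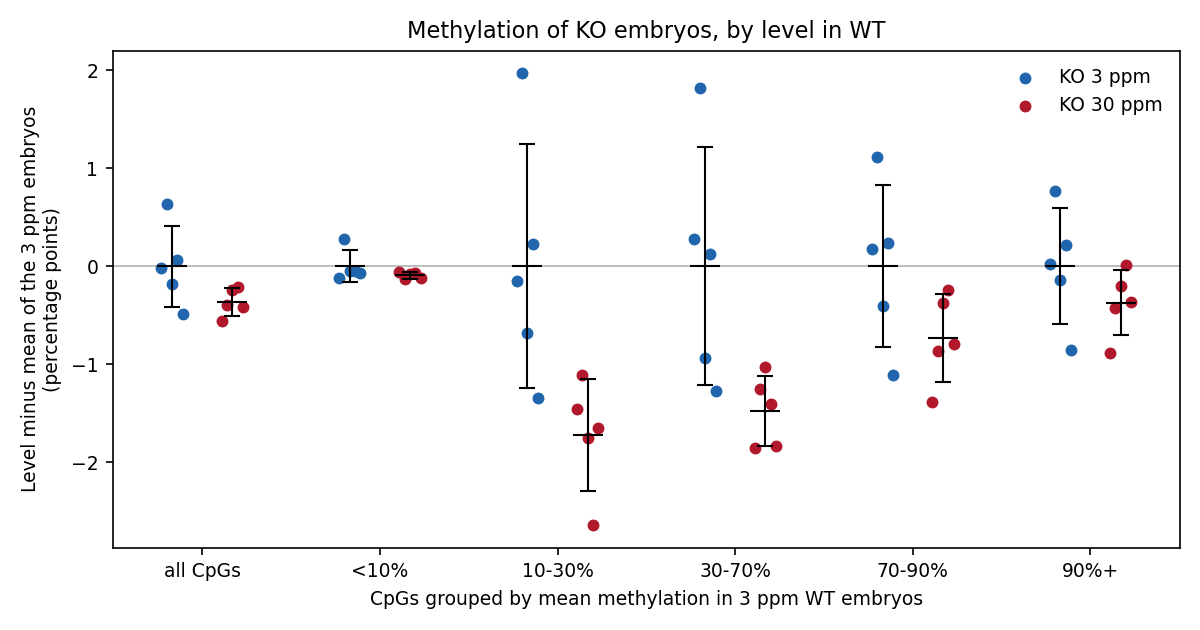
Difference in mean methylation between each KO embryo and the mean of the 3 ppm group (percentage points), by class of CpG level in WT 3 ppm embryos, with 1 point per embryo and bars at the group mean ± SD (n = 5 each). In the 10 to under 30% class 4 of 5 embryos on 30 ppm sit below every 3 ppm embryo, and in the other classes the groups overlap more.

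Promoters, the class of CpGs that is mostly unmethylated, differed little in absolute terms. Over 564879 CpGs within 1 kb of a start site the level was 7.10, 7.06, 7.15, 7.12 and 7.08% on 30 ppm and 7.14, 7.55, 7.17, 7.22 and 7.11% on 3 ppm. Replicate 2 of the 3 ppm group stood above the other 9 embryos. The difference was -0.138 points (exact p = 0.0397, adjusted p = 0.0882), and -0.0593 points without that embryo. With reads pooled over CpGs instead of equal weight per CpG, the exact p was 0.595 for promoters (-0.148 points). Exons (120552 CpGs) differed by -0.616 points, from 65.2% ± 0.107 on 30 ppm to 65.8% ± 0.507 on 3 ppm (exact p = 0.0317, adjusted p = 0.0882). Introns differed by -0.624 points (exact p = 0.111) and intergenic CpGs by -0.608 points (exact p = 0.143). By local CpG density, the differences were -0.655, -0.651 and -0.649 points where there were at most 2, above 2 to 5, and above 5 to 10 CpGs per kb (exact p = 0.167, 0.119 and 0.103). Above 10 CpGs per kb the difference was -0.236 points (exact p = 0.0238, adjusted p = 0.0882). The size of the difference in points was thus alike outside promoters, whatever the annotation, and smaller where most CpGs are unmethylated in every embryo.

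At regions hypermethylated in KO on 0.1 ppm FA, the KO embryos on 30 ppm were less methylated than those on 3 ppm in every pair of embryos. The regions were those the study listed as hypermethylated in KO against WT on the 0.1 ppm diet, a list that rests on none of the 10 libraries (6641 autosomal regions with 56334 of the CpGs). The WT group on 0.1 ppm has only 2 libraries, one of which read 40% at the Tet1 CpG. The pooled methylation level was 45.48, 45.79, 45.99, 44.62 and 45.92% in replicates 2 to 6 of the 30 ppm group. It was 47.64, 48.23, 46.46, 46.48 and 46.16% in replicates 1 to 5 of the 3 ppm group. All 5 embryos on 30 ppm lay below all 5 on 3 ppm, with the lowest 3 ppm embryo 46.2% and the highest 30 ppm embryo 46.0%. The difference was -1.43 points, with a 95% interval from -2.66 to -0.428 (exact p = 0.00794, the smallest p that 5 against 5 embryos can give, adjusted p = 0.0882). Without replicate 5 of the 30 ppm group, the lowest, it was -1.20 points (exact p = 0.0159). With 1 value per litter, 4 against 4, it was -1.14 points (exact p = 0.0286, the smallest that design allows). The classes of 10 to under 30% and 30 to under 70% in WT differed by -1.72 and -1.48 points. Those classes made no use of KO embryos, so a difference of this size was not particular to a choice by KO gain.

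For scale, the same regions were measured in the other genotypes at the 50525 CpGs covered in all of these embryos. WT embryos on 3 ppm averaged 28.2% ± 0.712 (SD, n = 4), HET embryos on 3 ppm 32.7% ± 0.566 (SD, n = 3) and the KO embryos on 3 ppm 46.7% ± 0.916 (SD, n = 5). The KO embryos on 30 ppm averaged 45.28% ± 0.573 (SD, n = 5). The diet difference in KO was therefore small beside the difference between genotypes. HET embryos on 30 ppm averaged 31.7% ± 0.900 (SD, n = 5), -1.03 points from HET on 3 ppm (exact p = 0.161). In WT the difference was -0.867 points for 2 against 4 embryos (exact p = 0.267, with 0.0667 the smallest possible). The library labelled WT 30 ppm replicate 2 was left out of that value, because it read 36.36% at the Tet1 CpG against 0% in the other 2 of its group, and it read 35.0% in these regions. With it the WT difference was +1.66 points (exact p = 0.714). The diet difference in KO exceeded that in HET by -0.389 points (permutation of the genotype labels within diet, exact, p = 0.602) and that in WT by -0.556 points (exact p = 0.428), so a diet effect particular to KO was not detectable here. HET embryos came from the same litters as KO embryos on both diets, so their values are not independent of the litters. KO embryos on 0.1 ppm averaged 47.0%, +0.302 points from the same 3 ppm embryos.

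**Figure D2:**
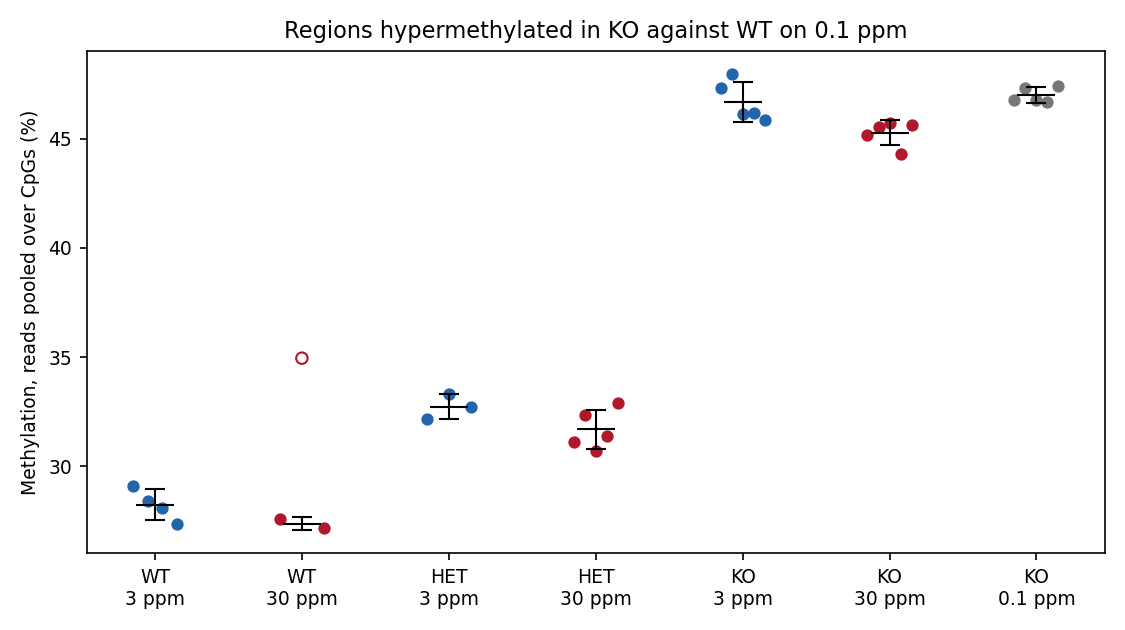
Pooled methylation level (%) of each embryo at the regions hypermethylated in KO against WT on 0.1 ppm FA, by genotype and diet, with 1 point per embryo and bars at the group mean ± SD. The hollow point is the library labelled WT 30 ppm replicate 2, left out of its group's mean. The 5 KO embryos on 30 ppm lie between 44.3 and 45.7%, below the 5 on 3 ppm (45.9 to 48.0%), and both groups lie far above WT and HET.

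The other region lists gave differences of the same sign. Only their autosomal regions were used, and the counts below are of those. At the 590 autosomal regions (4207 CpGs) of the 857 deposited as more methylated on 30 than on 3 ppm in WT, the KO embryos on 30 ppm read 54.9, 54.5, 53.9, 52.4 and 54.1%, and those on 3 ppm 56.6, 56.4, 55.3, 56.2 and 53.9%. The groups overlapped through replicate 5 of the 3 ppm group. The difference was -1.74 points (exact p = 0.0397, adjusted p = 0.0882). In WT embryos, in which the list was defined, the difference there was +2.46 points without the library labelled WT 30 ppm replicate 2 and +5.06 points with it, since that library read 43.1% against 36.0 and 34.6% in the other 2. HET embryos differed by -1.26 points there (exact p = 0.0357), and the KO effect was not distinguishable from the HET effect (difference -0.526 points, exact p = 0.555). At regions less methylated on 0.1 than on 3 ppm in WT (2850 regions) the KO difference was -1.50 points (exact p = 0.0317, adjusted p = 0.0882), and at regions more methylated in HET than in WT on 3 ppm (5501 regions) -1.43 points (exact p = 0.0397, adjusted p = 0.0882). These regions were chosen as high in WT or in HET embryos on 3 ppm, from litters that also gave KO embryos on 3 ppm. A litter or diet effect shared with them would favour this sign, so these differences are no separate support. At regions more methylated on 0.1 than on 3 ppm in WT (2616 regions) it was -0.635 points, with an interval from -2.12 to 0.729 (exact p = 0.357). At 478 regions less methylated in HET than in WT it was -0.412 points, with an interval from -2.04 to 1.12 (exact p = 0.540), and at 4 regions more methylated on 0.1 ppm in HET it was -2.40 points, with an interval from -7.64 to 2.61 (exact p = 0.302). The KO against WT lists of 30 and of 3 ppm were made with the libraries compared here and are given without a test. Their differences were -0.945 points for the 30 ppm list and -1.75 points for the 3 ppm list. At the 30 ppm list the groups overlapped, with the highest 30 ppm embryo at 48.6% and the lowest 3 ppm embryo at 48.3%.

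In points, the diet difference was larger in tiles with a larger gain from WT on 3 ppm to KO on 0.1 ppm. That gain mixes the loss of TET1 with the 0.1 ppm diet, which cannot be told apart in it. CpGs were grouped in 1 kb tiles by the gain from WT embryos on 3 ppm to KO embryos on 0.1 ppm, a grouping that uses none of the 10 libraries and that was chosen after seeing the data. Tiles with a gain under 5 points (729629 CpGs) differed by -0.156 points between the KO groups (exact p = 0.254, also after adjustment over 5 bins). For a gain of 5 to under 10 points (64850 CpGs) the difference was -0.730 points (exact p = 0.0635, adjusted p = 0.0794). For 10 to under 20 points (42405 CpGs) it was -1.19 points (exact p = 0.0238, adjusted p = 0.0397). For 20 to under 30 points (14004 CpGs) the 30 ppm embryos read 53.3, 53.8, 53.2, 52.0 and 53.6%, and the 3 ppm embryos 55.3, 56.8, 54.5, 55.3 and 54.0%. All 5 lay below every 3 ppm embryo, with a difference of -2.03 points (exact p = 0.00794, the smallest possible, adjusted p = 0.0198). For a gain of 30 points or more (7681 CpGs) the 30 ppm embryos read 60.5, 60.8, 60.2, 56.4 and 60.6%, and the 3 ppm embryos 62.0, 63.6, 61.3, 62.5 and 61.1%. The groups did not overlap, and the difference was -2.38 points (exact p = 0.00794, the smallest possible, adjusted p = 0.0198). Replicate 5 of the 30 ppm group lay apart in this bin, with 56.4% against 60.2 to 60.8% in the other 4. Without it the 5 differences were -0.194, -0.785, -1.14, -1.73 and -1.54 points, so that the top bin no longer differed most, and the adjusted p of the top bin was 0.0595 by the exact test. With the library labelled KO 30 ppm replicate 1, the adjusted p of the 3 upper bins rose to 0.105 to 0.108 in the exact test, although their differences in points were larger. With 1 value per litter, 4 against 4, the adjusted p was 0.0952, 0.0714 and 0.0714, so none of the 3 calls held (differences -0.977, -1.66 and -1.85 points). In the 2 upper bins the exact p was then the smallest that 4 against 4 can give. The lowest bin differed by -0.0566 points without replicate 2 of the 3 ppm group. HET embryos differed by -0.159, -1.01, -1.23, -1.17 and -1.34 points from the lowest to the highest bin, and the KO difference was not distinguishable from that of HET in the 2 upper bins (exact p = 0.349 and 0.366). WT embryos differed by -0.0548, +0.0554, -0.126, -0.0324 and -0.104 points without the library labelled WT 30 ppm replicate 2, and by +0.0180, +0.924, +1.61, +2.83 and +4.21 points with it, not tested here. The differences between bins were not tested. The bins differ in level too, with KO means on 3 ppm of 23.2% in the lowest bin and 55.2 to 63.0% in the others. A shift in points has more room at middle levels. CpGs classed by WT level alone differed by -1.72 points in the class of 10 to under 30%. The parts of level and of gain were not told apart.

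**Figure D3:**
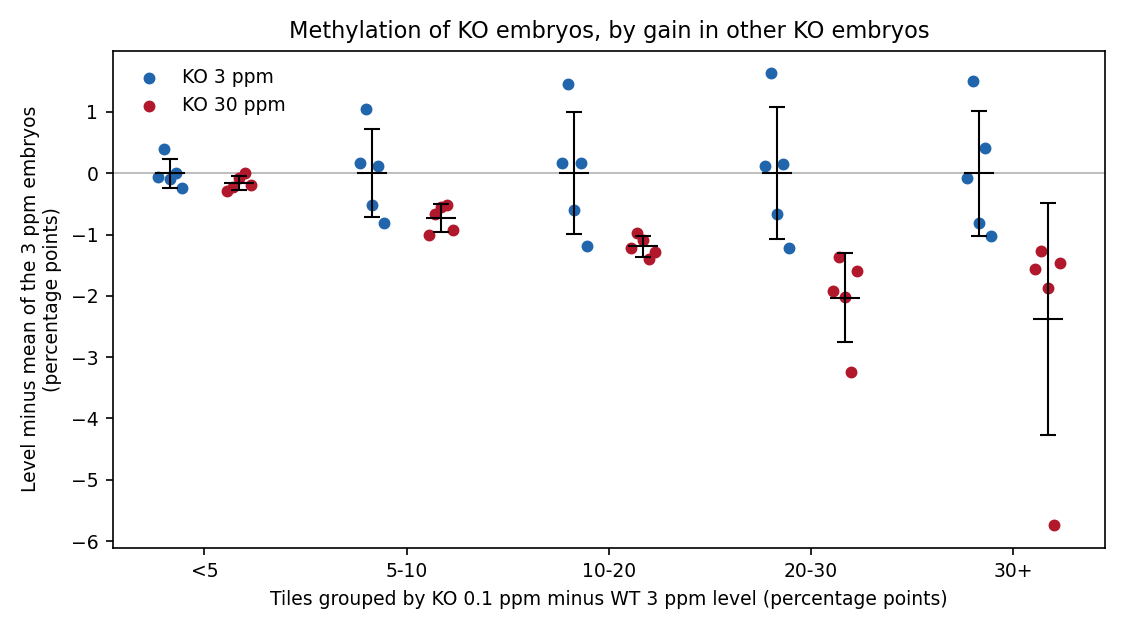
Difference between KO embryos on 30 and 3 ppm FA (percentage points, vertical axis) by the gain of methylation from WT 3 ppm to KO 0.1 ppm embryos (bins, horizontal axis), with 1 point per embryo relative to the 3 ppm mean and bars at the group mean ± SD (n = 5 each). The difference goes from -0.156 points in the lowest bin to -2.38 points in the highest, where 1 embryo on 30 ppm sits apart.

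At the level of single regions, no tile passed the test. Of 91747 tiles of 1 kb with at least 3 CpGs, 64021 had a standard deviation of at least 2 points over the 10 embryos and were tested with a quasi-binomial model of methylated and unmethylated reads. An embryo had a median of 63 to 108 reads per tile. For a call, the adjusted p had to be under 0.05 and the means had to differ by 10 points or more. By this rule 0 tiles were called, and the smallest adjusted p was 0.327 in the quasi-binomial test. Without adjustment 3467 tiles (5.42%) had a p under 0.05, of which 841 were higher on 30 ppm (1.31% of tiles) and 2626 lower (4.1%). With a difference of 10 points or more as well, 84 tiles were higher (0.131%) and 310 lower (0.484%). These counts were 158 and 314 without replicate 2 of the 3 ppm group, 110 and 466 without its replicate 3, 128 and 473 without replicate 5 of the 30 ppm group, and 30 and 124 at a coverage of 10 or more. Every embryo on 30 ppm lay above every embryo on 3 ppm in 125 tiles (0.195%) and below in 376 (0.587%). Over all tested tiles 60.4% were lower on 30 ppm, and the median difference was -0.702 points. The most extreme differences were -24.5 and +27.2 points, and 8 tiles differed by 20 points or more.

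The 310 lower and 84 higher tiles, called candidate tiles below and not called by the test, were unlike the average tile in level. A shift of 10 points or more has more room at middle levels. The contrasts in level, gain and overlap given here may therefore follow in part from the choice of tiles, which was not tested. Their median level in WT embryos on 3 ppm was 46.4% for the lower and 63.5% for the higher tiles, against 85.3% for all tested tiles. The median gain from WT on 3 ppm to KO on 0.1 ppm was 13.6 points for the lower, 9.64 points for the higher and 3.45 points for all tiles. Of the lower candidate tiles 57 (18.4%) overlapped the regions hypermethylated in KO on 0.1 ppm, of the higher ones 11 (13.1%), and of all tested tiles 8.67%. Promoter tiles made up 17.4% of the lower, 11.9% of the higher and 11.3% of all tested tiles, and exon tiles 10.0, 8.33 and 16.6%. Coverage moved with this choice too, with a median of 59.75 reads per embryo in the lower candidate tiles, 52 in the higher and 74 in all tiles, and its part was not tested.

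**Figure D4:**
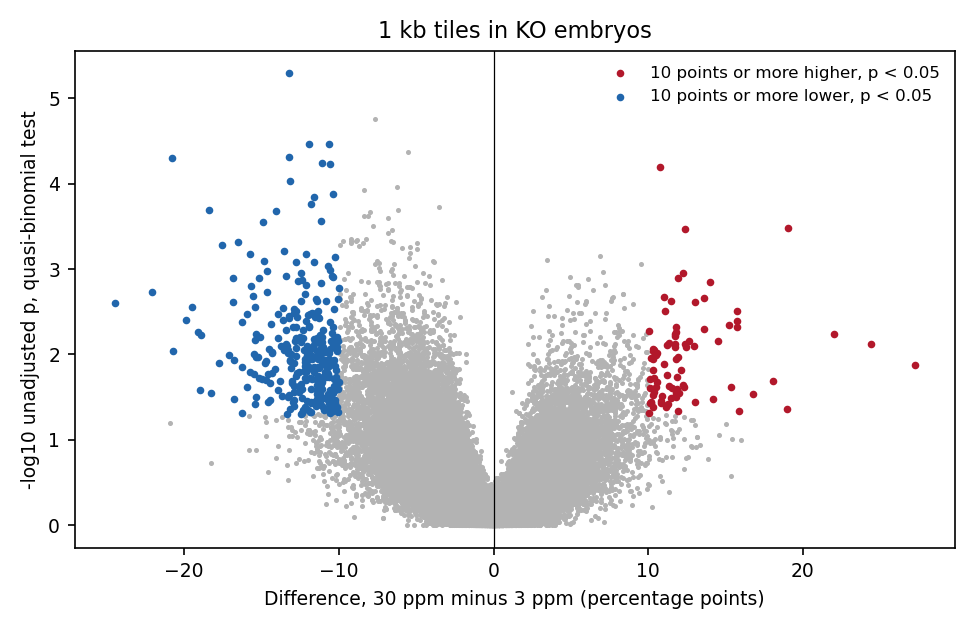
Difference between KO embryos on 30 and 3 ppm FA (percentage points) against −log10 of the unadjusted p of the quasi-binomial test, for 64021 tiles of 1 kb. More tiles lie on the lower side, 310 candidate tiles of at least 10 points against 84 on the higher side, and 0 are called after adjustment.

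The tiles named below are the 6 in each direction with the smallest unadjusted p among those of 10 points or more, named by the nearest start site. For the tiles the account turns on, the stretch with most of the measured CpGs is printed from the plus strand of GRCm38 (mm10), with the CpGs measured in all 10 embryos in capitals, to show how the CpGs lie together.
Col11a2 tile, promoter, chr17:34038493-34038726: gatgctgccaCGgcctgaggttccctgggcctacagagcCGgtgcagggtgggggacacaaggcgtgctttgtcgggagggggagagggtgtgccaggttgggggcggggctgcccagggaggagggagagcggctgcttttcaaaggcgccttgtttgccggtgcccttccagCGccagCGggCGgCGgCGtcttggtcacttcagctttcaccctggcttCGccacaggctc
Mkrn3 tile, promoter, chr7:62419794-62420010: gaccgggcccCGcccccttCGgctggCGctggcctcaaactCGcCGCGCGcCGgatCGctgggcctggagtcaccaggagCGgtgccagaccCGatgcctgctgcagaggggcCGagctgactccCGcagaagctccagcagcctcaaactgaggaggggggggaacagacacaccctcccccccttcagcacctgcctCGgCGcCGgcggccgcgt
Pcdh7 tile, exon, chr5:57719991-57720206: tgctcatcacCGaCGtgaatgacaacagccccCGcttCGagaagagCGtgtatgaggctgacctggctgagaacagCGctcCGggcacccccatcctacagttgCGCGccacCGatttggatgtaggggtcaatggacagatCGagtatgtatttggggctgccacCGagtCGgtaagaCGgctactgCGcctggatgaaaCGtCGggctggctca
Cux2 tile, intron, chr5:121982007-121982150: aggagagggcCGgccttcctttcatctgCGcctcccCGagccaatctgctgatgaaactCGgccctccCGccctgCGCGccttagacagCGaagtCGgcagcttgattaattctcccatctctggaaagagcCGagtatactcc
4931440F15Rik tile, promoter, within Eml6, chr11:29825236-29825478: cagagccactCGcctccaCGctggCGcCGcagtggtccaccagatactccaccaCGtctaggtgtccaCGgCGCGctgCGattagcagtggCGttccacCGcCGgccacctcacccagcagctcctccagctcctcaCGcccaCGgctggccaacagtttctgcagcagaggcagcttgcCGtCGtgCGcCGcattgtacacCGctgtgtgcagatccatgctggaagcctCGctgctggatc
Wnt3a tile, intron, chr11:59284316-59284409: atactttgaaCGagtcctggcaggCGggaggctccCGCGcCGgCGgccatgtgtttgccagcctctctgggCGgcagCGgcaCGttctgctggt
Tenm2 tile, exon, chr11:36008385-36008498: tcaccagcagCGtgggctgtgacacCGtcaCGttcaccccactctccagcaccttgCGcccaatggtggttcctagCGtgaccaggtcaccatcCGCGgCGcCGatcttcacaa
Slc46a1 tile, exon, chr11:78466685-78466869: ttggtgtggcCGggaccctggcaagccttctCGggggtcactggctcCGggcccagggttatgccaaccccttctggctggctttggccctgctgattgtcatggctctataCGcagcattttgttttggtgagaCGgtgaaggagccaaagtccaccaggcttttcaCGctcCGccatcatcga

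The tile with the smallest p lies within 1 kb of the start site of Col11a2, which encodes a chain of type XI collagen. Its methylation level was 49.1, 52.1, 54.9, 48.8 and 59.9% on 30 ppm and 71.7, 67.7, 68.9, 58.3 and 64.1% on 3 ppm. The groups overlapped only through replicate 6 on 30 ppm and replicate 4 on 3 ppm. All 8 of its CpGs were lower on 30 ppm, by -20.7 to -0.634 points. The tile differed by -13.2 points between means of 52.9% ± 4.58 and 66.2% ± 5.19 (SD, n = 5 each). Its unadjusted p was 5.10e-06 and its adjusted p 0.327 in the quasi-binomial test. The WT embryos on 3 ppm read 7.17 to 9.10% and the HET embryos on 3 ppm 18.2% on average, so this is a tile with a large gain in KO. KO embryos on 0.1 ppm averaged 56.1%, nearer to the 30 ppm group than to the 3 ppm group. The other lower tiles measured in them did not share this. Their mean was 49.2% in the tile of Pcdh7, 71.7% in that of Cux2 and 48.9% in that of 4931440F15Rik, nearer to the 3 ppm group. In the tile of Mkrn3 it was 30.0%, about midway.

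Pcdh7, a protocadherin of cell adhesion in the nervous system, and the intron of Cux2, a homeodomain factor of neuronal precursors, had the same order of genotypes. The exon tile of Pcdh7 read 46.67, 39.22, 41.76, 37.02 and 25.19% on 30 ppm and 52.48, 45.61, 53.97, 48.17 and 49.43% on 3 ppm, against 7.59% on average in WT on 3 ppm. The difference was -12 points, with 1 embryo on 30 ppm within the 3 ppm range and replicate 6 far below, and 21 of 24 CpGs were lower. Inside Cux2, where the nearest start site is Gm3970, the tile read 62.1, 67.5, 55.1, 53.8 and 61.3% on 30 ppm and 76.7, 83.2, 66.3, 69.3 and 70.4% on 3 ppm. WT embryos on 3 ppm averaged 30.3% there, and the diet difference in KO was -13.2 points, with 10 of 11 CpGs lower. The promoter tile of 4931440F15Rik inside Eml6 differed by -11.1 points, from 34.46, 42.80, 35.28, 41.65 and 45.02% on 30 ppm to 50.68, 58.80, 43.22, 54.72 and 47.38% on 3 ppm, with 19 of 20 CpGs lower and a WT mean of 21.4%. In these 3 tiles and the one near Col11a2, the 30 ppm group lay between WT and the KO group on 3 ppm. The choice of tiles lower on 30 ppm favours this order wherever KO gains much over WT, so it is no separate result. The tile of Mkrn3 described next did not have it, and the tile near Nron was not measured in WT on 3 ppm.

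Mkrn3, an imprinted and intronless gene expressed from the paternal allele, had a tile that was at a like level in WT and in KO on 3 ppm. It read 21.5, 29.7, 22.9, 26.6 and 22.6% on 30 ppm and 32.63, 38.78, 41.43 and 27.67% in replicates 1 to 4 on 3 ppm, where replicate 5 lay between the first 2, with overlap through replicate 3 of the former and replicate 4 of the latter. The difference was -10.7 points, and 18 of 20 CpGs were lower. WT embryos on 3 ppm read 25.9 to 38.9%. In an intron of Mvb12b, which encodes a subunit of the ESCRT-I sorting complex, and with the non-coding Nron as nearest start, the tile read 44.2, 65.2, 55.6, 61.4 and 53.8% on 30 ppm and 88.2, 72.8, 77.6, 72.7 and 72.7% on 3 ppm. All 5 were below every 3 ppm embryo, a difference of -20.8 points with all 6 CpGs lower, on 43 to 98 reads per embryo. Across these 6 lower tiles the unadjusted p was at most 5.77e-05 and the adjusted p 0.327 to 0.409 in the quasi-binomial test, so none was called. Among embryos labelled norm, 2 against 3, the tiles of Col11a2, Pcdh7, Mkrn3 and Cux2 were called (adjusted p = 0.00983, 1.21e-07, 0.0122 and 0.00188 in the same test), and that of Col11a2 also with littermates' reads summed (adjusted p = 0.0375). Both settings reuse embryos that chose these tiles, so the calls are no independent support. The moderated dispersion also draws on the other tiles, so these p do not rest on the spread between these few embryos alone. Some other tiles called among embryos labelled norm had the opposite sign over all embryos.

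The 6 tiles higher on 30 ppm were mostly highly methylated and had start sites of genes with provisional names as their nearest. The clearest lies in an exon of Tenm2, a teneurin that guides synaptic partners, with Gm12125 as its nearest start. It read 96.3, 96.3, 93.8, 96.7 and 96.8% on 30 ppm and 85.2, 93.1, 87.1, 87.5 and 73.2% on 3 ppm. All 5 embryos on 30 ppm lay above every embryo on 3 ppm, the difference was +10.8 points and all 9 CpGs were higher. Its unadjusted p was 6.39e-05 and its adjusted p 0.409 in the quasi-binomial test. KO embryos on 0.1 ppm averaged 93.2%. The tile near Gm32842 read 91.8, 90.6, 84.8, 87.5 and 86.7% on 30 ppm and 75.9, 75, 74.4, 75.4 and 79.2% on 3 ppm, again without overlap, a difference of +12.3 points on 3 CpGs. WT embryos on 3 ppm averaged 66.8% there. The exon tile of Inka1, with Gm20661 as nearest start, differed by +11.9 points without overlap, from 82.8 to 91.8% on 30 ppm against 60.0 to 81.5% on 3 ppm. The tiles near Gm11674 (+19 points), Gm5576 (+12.4 points) and Gm24048 (+14 points) held 6, 4 and 3 CpGs, all of them higher. Their adjusted p in the quasi-binomial test was 0.737 to 0.864.

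**Figure D5:**
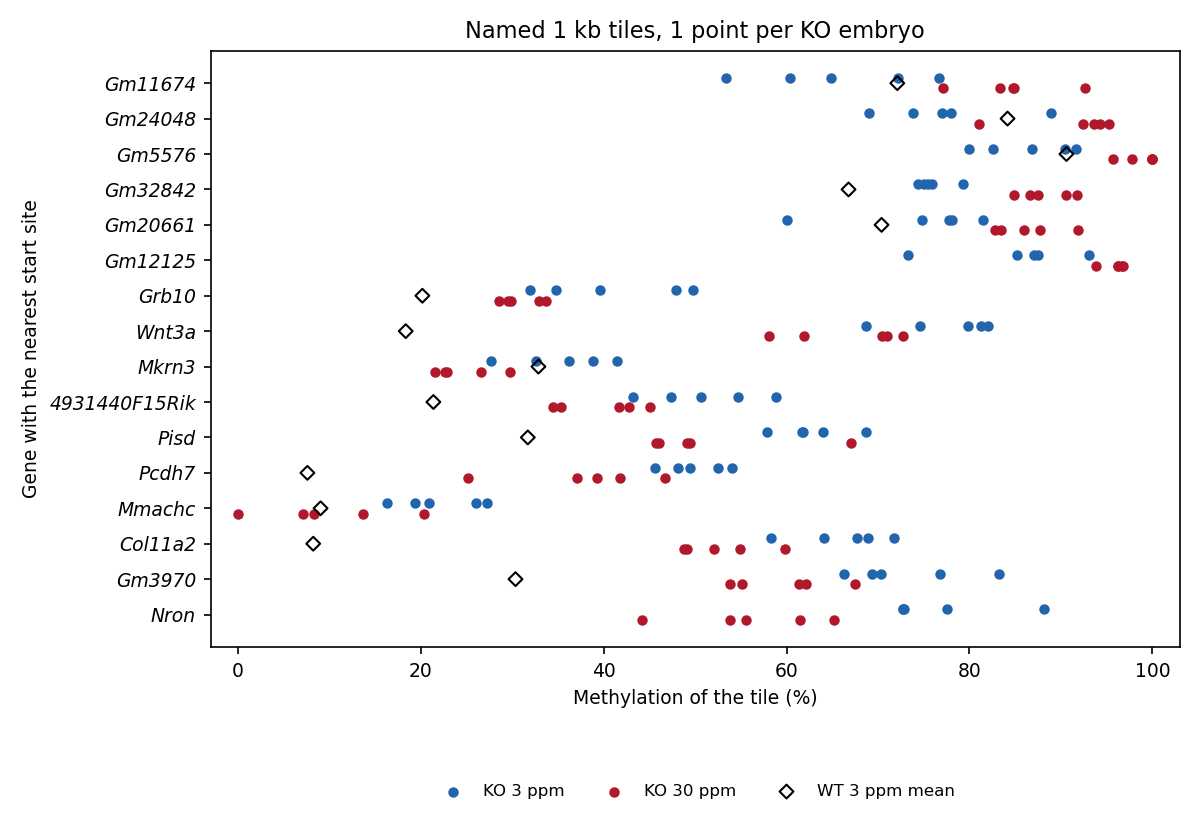
Methylation level (%) of each KO embryo in the 6 lower and 6 higher tiles named above and in those of Pisd, Mmachc, Wnt3a and Grb10, described in the text that follows, by nearest start site, with 30 and 3 ppm FA in separate colours and a diamond at the mean of WT 3 ppm embryos where the tile was measured there. The Gm3970 tile lies in Cux2, the Nron tile in Mvb12b and the Gm12125 tile in Tenm2, and 0 of the tiles shown passed the adjusted test.

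Genes that carry folate across membranes had tiles on both sides of no difference. Of 12 folate transport genes 8 had 36 tested tiles, of which 52.8% were lower, at a median of -0.0751 points against 60.4% and -0.702 points over all tiles. At an unadjusted p under 0.05, 2 tiles were higher and 0 lower, where 1.31 and 4.1% of all tiles were. The smallest p (0.0241) belonged to a tile assigned to Abcc3, an efflux transporter, that lies in Cacna1g, with +6.69 points. Slc46a1, the proton-coupled folate transporter, had a tile in an exon near its start site (printed above) that read 81.6, 75, 84.4, 78.5 and 87.0% on 30 ppm and 88.0, 89.2, 83.3, 88.0 and 77.9% on 3 ppm. The groups overlapped widely. The difference was -3.98 points (quasi-binomial p = 0.112, adjusted p = 0.929). Slc19a1, the reduced folate carrier, read 42.03, 41.27, 50.00, 42.45 and 51.61% on 30 ppm against 39.5, 48.6, 44.7, 58.3 and 54.4% on 3 ppm at its start site. The mean was -3.66 points different (p = 0.348 in the quasi-binomial test), or -6.05 to -1.35 points with 1 embryo left out, the former without replicate 1 and the latter without replicate 4 of the 3 ppm group. Slc10a4, a carrier of synaptic vesicles, differed by -0.947 points (quasi-binomial p = 0.672) in a tile with 25 CpGs, and by +1.59 points without replicate 2 of the 3 ppm group. The start sites of the folate receptors Folr1 and Folr2 had no tile with 3 measured CpGs. Those of Slc32a1, Tet1, Dnmt3a and Dnmt3b had such tiles, but with a standard deviation under 2 points over the 10 embryos, so none was tested.

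Among the enzymes that make or use methyl groups, the tiles were lower more often than higher, as over all tiles. Of all tested tiles 60.4% were lower, with a median of -0.702 points. At an unadjusted p under 0.05, 1.31% of all tiles were higher and 4.1% lower. One-carbon metabolism genes had 68 tiles, 60.3% of them lower, with a median of -0.437 points and 0 higher and 3 lower at an unadjusted p under 0.05. One of these lies in Mmachc, which processes vitamin B12 for methionine synthase, and read 0, 8.33, 7.14, 20.4 and 13.6% on 30 ppm against 16.3, 19.4, 20.9, 27.3 and 26.0% on 3 ppm, so that the 30 ppm mean differed by -12.1 points (quasi-binomial p = 0.00881, adjusted p = 0.874). Phospholipid synthesis genes had 52 tiles, 69.2% lower with a median of -1.03 points, and 0 higher and 4 lower. Pisd, which makes phosphatidylethanolamine in mitochondria, read 67.0, 49.5, 49.1, 46.1 and 45.7% on 30 ppm against 57.9, 68.7, 61.8, 64.0 and 61.7% on 3 ppm, a difference of -11.4 points in which replicate 2 on 30 ppm lay with the 3 ppm embryos. The genes of DNA methylation and its removal had 58 tiles, 56.9% lower with a median of -0.860 points, and 2 higher and 6 lower. The smallest p among them was at Uhrf2, a reader of modified cytosine, with 18.8, 9.96, 12.7, 12.4 and 15.1% on 30 ppm and 18.5, 23.8, 17, 19.3 and 17% on 3 ppm, so that the 30 ppm mean differed by -5.32 points (quasi-binomial p = 0.0058, adjusted p = 0.874).

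The lists of neural development were read against all tested tiles, of which 60.4% were lower, and 1.31% higher and 4.1% lower at an unadjusted p under 0.05. Brain patterning factors had 164 tiles, 73.8% of them lower with a median of -1.05 points, and 1 higher and 9 lower at an unadjusted p under 0.05. The tile assigned to Nkx6-2, a homeodomain factor of the ventral neural tube, lies between genes. It read 80.4, 89.9, 84.8, 86.6 and 94.7% on 30 ppm and 91.7, 95, 94.9, 95.5 and 93.5% on 3 ppm, a difference of -6.84 points. WNT pathway genes had 193 tiles, 62.2% lower with a median of -0.762 points, and 0 higher and 9 lower, with candidate tiles at Tcf7l2 and Wnt3a. In the intron of Wnt3a, a ligand of the dorsal midline, the tile read 71.0, 70.5, 72.8, 58.0 and 61.9% on 30 ppm and 82.0, 79.8, 68.6, 74.6 and 81.3% on 3 ppm. All 9 CpGs were lower, the difference was -10.4 points (quasi-binomial p = 0.0012, adjusted p = 0.864), and WT embryos on 3 ppm averaged 18.3%. Axon guidance genes had 200 tiles, 62.0% lower with a median of -0.943 points, and 2 higher and 7 lower. The only candidate tile of this list, at Epha8, was higher on 30 ppm. The intron tile of the receptor Ephb2 differed by -6.59 points, from 18.2 to 25.9% on 30 ppm against 23.3 to 35.0% on 3 ppm, although 11 of its 22 CpGs were higher when each was weighted alone. Cranial neural tube closure genes had 130 tiles, 60.0% lower with a median of -0.499 points, and 1 higher and 3 lower, led by Jarid2, a cofactor of Polycomb repressive complexes, with -6.76 points.

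The lists that follow are set beside the same shares of all tested tiles, 60.4% lower, and 1.31% higher and 4.1% lower at an unadjusted p under 0.05. Neurotransmitter carriers had 36 tiles, 55.6% lower with a median of -0.977 points, and 0 higher and 1 lower, at Slc1a2, a glutamate transporter (-8.04 points). Synaptic vesicle genes had 80 tiles, 65.0% lower with a median of -0.963 points, and 1 higher and 4 lower. Unc13a, which primes vesicles for release, read 11.4, 18.5, 22.4, 13.3 and 2.86% on 30 ppm and 11.4, 28.9, 31.1, 26.7 and 23.2% on 3 ppm, so that the 30 ppm mean differed by -10.6 points (quasi-binomial p = 0.00855, adjusted p = 0.874). The Hox clusters had 17 tiles, 35.3% lower against 60.4% of all tiles, with a median of +1.25 points, and 2 higher and 0 lower. Hoxa7, a posterior patterning gene, read 21.8, 30.1, 49.7, 21.1 and 27.6% on 30 ppm and 20.5, 31.2, 12.7, 14.7 and 22.7% on 3 ppm. Replicate 4 on 30 ppm was the highest and the groups overlapped. The 30 ppm mean differed by +9.70 points (quasi-binomial test, adjusted p = 0.880), and by +4.80 points without that embryo.

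The last 3 lists were of germline, imprinted and muscle genes, set against the same 60.4% lower, 1.31% higher and 4.1% lower of all tiles. Germline genes, kept methylated in somatic cells, had 63 tiles, 76.2% of them lower with a median of -1.59 points, and 0 higher and 3 lower. Slc25a31, an ADP/ATP carrier of sperm, read 82.7, 87.2, 86.4, 80.3 and 82.8% on 30 ppm and 88.2, 86.9, 92.7, 89.6 and 86.8% on 3 ppm, a difference of -4.96 points. Imprinted loci, which carry methylation on 1 parental allele, had 67 tiles, 49.3% lower with a median of +0.0328 points, and 3 higher and 7 lower. The lowest p of these lists was at Grb10, an imprinted growth inhibitor, with 29.5, 29.8, 32.9, 33.7 and 28.5% on 30 ppm against 39.6, 49.8, 47.9, 34.8 and 32.0% on 3 ppm, so that the 30 ppm mean differed by -9.92 points (quasi-binomial p = 0.000518, adjusted p = 0.737), where WT on 3 ppm averaged 20.2%. Muscle genes, markers of tissue outside the brain, had 116 tiles, 67.2% lower with a median of -0.996 points, and 0 higher and 4 lower, led by Tnni1 with -11.6 points. No tile of any of the 14 lists was called.

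The candidate tiles of KO embryos were followed in the other genotypes. At 275 of the 310 lower tiles measured in HET embryos, these read 49.83, 50.26, 48.54, 49.71 and 51.13% on 30 ppm and 51.1, 53.8 and 51.3% on 3 ppm. HET embryos on 30 ppm were thus lower too, by -2.16 points (exact p = 0.0357, with 0.0179 the smallest possible), against -12.5 points in the KO embryos in which the tiles were chosen. At 237 tiles WT embryos read 44.2 and 45.2% on 30 ppm against 44.7 to 47.5% on 3 ppm, a difference of -1.08 points (exact p = 0.333) without the library labelled WT 30 ppm replicate 2. With it the direction turned, to +1.40 points (exact p = 0.714). The 84 higher tiles differed by -0.550 points in HET (69 tiles, exact p = 0.518) and by +0.374 points in WT (56 tiles, exact p = 0.867), or +1.74 points with that library (exact p = 0.257). With HET embryos from the same litters as KO embryos, the lower level in HET does not separate litter from diet.

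The distance between embryos had nearly the same median within a diet and across diets. Over the tested tiles the mean absolute difference between 2 embryos was 4.92 to 5.53 points for 18 pairs of the same diet and different litters, with a median of 5.33 points. For 25 pairs across diets it was 4.42 to 5.65 points, with a median of 5.32 points. The 2 pairs of littermates differed by 4.82 and 5.27 points. The deepest libraries lay nearest to the others. Replicate 5 on 30 ppm (47.7 M calls) and replicate 3 on 3 ppm (42.6 M) had mean distances of 4.86 and 4.92 points. The rest had 5.24 to 5.42 points. The closer pair of littermates holds replicate 5 on 30 ppm, and the part of depth in these distances was not tested. Replicate 2 of the 3 ppm group was the highest of the 10 embryos in 16.5% of tiles, and replicate 2 of the 30 ppm group the lowest in 13.9%.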

How the data were processed

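Reads of MspI and TaqI digests were trimmed by the authors with Trim Galore 0.6.10, aligned to mm10 with Bismark 0.24.1 and deduplicated with UMI-tools, so a read stands for a molecule. The table deposited for a library holds, for each CpG, a methylated fraction and a coverage count. The authors' step that joins both strands is not given in the sources used here. The study's region lists are positions, which the authors made with methylKit 1.26.0. Those for the diets within KO were not used.

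Fraction times coverage gave whole methylated reads. Autosomal CpGs with coverage of at least 5 in every library were kept. Embryo levels were tested by exact permutation of the embryos (two-sided), with Benjamini-Hochberg adjustment over 20 tests and intervals by inversion of the test. Tiles of 1 kb with at least 3 CpGs and a standard deviation of at least 2 points entered a quasi-binomial logistic regression (numpy 2.4.6, scipy 1.17.1) whose dispersion was moderated as in limma 3.58.1 with a floor of 1. Two-sided F tests were adjusted over all tiles. Tiles take the gene of the nearest start site (GENCODE vM21), and promoters reach 1 kb either side of one. Sequences are from RefSeq's copy of GRCm38.p6.

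Named tiles are the 6 in each direction of at least 10 points with the smallest p, at most 1 per gene, as fewer than 5 were called, the tile with the smallest p of each of 14 gene lists, and tested tiles within 1 kb of the start sites of 10 genes, of which 1 is not reported here. Members, lists and tests were chosen with earlier results of these data known. The bins by KO gain, the other genotypes and the restriction to embryos labelled norm at the region lists were added after seeing the data. Scripts were tested on simulated data. Replicates are single embryos, some of them littermates.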

Additional observations from a re-analysis of the deposited data

Results flagged for a closer look

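In 7 of 120 groups of embryos examined, 1 embryo lay far from the other 4, with a gap over 0.71 of the group's range. Chance alone flags about 1 in 20 such groups. A few of the groups were of HET embryos or of 4 WT embryos, the latter with a higher limit, and none of those was flagged. Replicate 2 of the 3 ppm group was apart in 3 of them: it averaged 2.21% in the CpG class under 10% in WT (the other 4 embryos 1.82 to 1.89%), 7.55% at promoter CpGs (7.11 to 7.22%) and 36.5% in the start site tile of Slc10a4 (22.2 to 25.1%). Replicate 5 of the 30 ppm group read 56.4% in the tiles that gain 30 points or more in KO (60.2 to 60.8%). Replicate 4 of that group read 93.8% in the Tenm2 tile nearest to Gm12125 (96.3 to 96.8%) and 81.1% in the tile near Gm24048 (92.4 to 95.2%). Replicate 2 of the 30 ppm group read 67.0% in the Pisd tile (45.7 to 49.5%). The causes were not tested.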

How the results depend on the processing

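The lower methylation of KO embryos on 30 ppm FA kept its direction in most settings. Of 303 alternative values of embryo means, 284 kept direction and side of the threshold, 17 newly passed it, all without replicate 5 of the 3 ppm group, and 2 reversed. The global difference became 1.01 points when each embryo's own CpGs were used, a set that differs between embryos, and was -0.492 to -0.210 points with 1 embryo left out. At regions less methylated in HET than in WT it was 0.0211 points without replicate 2 of the 3 ppm group, and -0.645 to 0.0211 points over all omissions. With 1 embryo left out, the range was -0.123 to -0.0231 points in the class under 10%, and -2.06 to -1.23, -1.80 to -1.03, -1.01 to -0.456 and -0.588 to -0.183 points in the classes of 10 to under 30, 30 to under 70, 70 to under 90 and 90% or above. It was -0.169 to -0.0593 points for promoters, -0.782 to -0.441 for exons, -0.843 to -0.364 for introns and -0.859 to -0.335 for intergenic CpGs. By CpG density from low to high it was -0.952 to -0.356, -0.909 to -0.359, -0.880 to -0.383 and -0.296 to -0.135 points. At the region lists it was -1.64 to -1.13 points (KO against WT on 0.1 ppm), -2.18 to -1.34 (WT, 30 against 3 ppm), -1.88 to -1.11 (lower on 0.1 ppm in WT) and -1.79 to -1.10 (HET above WT). With the library labelled KO 30 ppm replicate 1, the diet difference at the first of these lists was -3.85 points (exact p = 0.0498, adjusted p = 0.130).

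The count of called tiles, 0, was 0 to 3 with 1 embryo left out: Pcdh7 without replicate 2 and Col11a2 without replicate 6 of the 30 ppm group, a tile near Mrpl19 without replicate 3 of the 3 ppm group, and Zfp46, Mkrn3 and Col11a2 without its replicate 4. It was 3 with littermates' reads summed, 36 among embryos labelled norm (3 higher, 33 lower, with Wnt3a and Grb10 among the latter), 174 with a binomial test at dispersion 1 (36 higher, 138 lower) and 8 for single CpGs. Of 478 alternative values of named tiles 467 kept their call and 11 newly passed. The sign turned for Slc10a4 without replicate 2 of the 3 ppm group (1.59 points) and with littermates summed, and for Slc19a1 among embryos labelled norm. Of 75 for the bins by gain, 3 newly passed and 17 no longer did, among them all 3 upper bins with the library labelled KO 30 ppm replicate 1 (-2.81, -4.80 and -6.98 points), with 1 value per litter, and among embryos labelled norm, where 2 against 3 cannot give a p under 0.1. With the other weighting of CpGs, the bin of 10 to under 20 points no longer passed (adjusted p = 0.119 by the exact test), and the exact p was 0.738 for the global difference, 0.230 for exons and 0.802 at the highest CpG density. At an unadjusted p under 0.05, the tiles of 10 points or more numbered 84 higher and 310 lower. With that library they were 38 and 690, at a coverage of 10 or more 30 and 124, among embryos labelled norm 203 and 754, without replicate 5 of the 30 ppm group 128 and 473, without replicate 2 of the 3 ppm group 158 and 314, and 110 and 466 without replicate 3 of that group.

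The diet difference in other genotypes at the KO candidate tiles reversed in some settings. With reads pooled over tiles, the higher tiles gave 0.756 points in HET and -0.348 points in WT. With tiles at p under 0.01 they gave -0.00733 points in WT. The lower tiles gave 1.40 points in WT with the library labelled WT 30 ppm replicate 2. In HET, pooled reads gave -2.24 points (exact p = 0.0893), and with 1 embryo left out the range was -2.64 to -1.20 points. The causes were not tested. No paired analysis was possible because no litter spans both diets and the labels give embryos no replicate numbers. The diet differences of KO and HET were not paired by litter. An embryo had a median of 63 to 108 reads per tile.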

Other observations

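When CpGs were tested one by one, 8 of 702335 passed the same thresholds as the tiles, 5 higher and 3 lower on 30 ppm, and 5 of the 8 lie within 2.13 Mb of chromosome 10 (GRCm38, 40876371 to 43004233), at Cdc40, between genes, in Scml4 and in Sobp. All 5 had levels near 0 in some embryos of a diet and far higher in others. The test moderates the dispersion of a CpG towards a common value, so such a spread between embryos counted in part at most. A CpG that passed is therefore not always one that differs beyond the spread between embryos. At the intronic CpG of Scml4, a Polycomb-related gene (position 42919953), the 30 ppm embryos read 91.3, 96.8, 60, 24 and 0% and the 3 ppm embryos 0, 0, 0, 0 and 92.7%, on 29 to 50 reads. WT embryos on 3 ppm read 0 to 2.17% there, and HET embryos on either diet 0 to 56.4%. At the intergenic CpG (position 41154006) the 30 ppm embryos read 100, 95.2, 37.5, 45.9 and 0%, against 0, 0, 0, 0 and 88.9% for 3 ppm, so the same embryos were high. The cause of this pattern was not tested. The other 3 CpGs lie at the shared promoter of Ccdc173 and Gm13623 (chromosome 2, -34.5 points), in an exon of Fam83h (chromosome 15, -32.8 points) and at the promoter of Gm26917 (chromosome 17, -11.5 points). The groups overlapped widely at Gm26917, with 32.85, 54.12, 46.34, 34.13 and 10.20% for 30 ppm against 5.68, 67.9, 38.1, 69.8 and 53.8% for 3 ppm. They overlapped at Ccdc173 too, with 0, 0, 0, 46.9 and 52.9% against 64.3, 52.6, 55.2, 0 and 100%. At Fam83h the embryos read 15, 37.0, 15, 19.2 and 19% on 30 ppm and 42.11, 38.89, 60.53, 70.83 and 57.14% on 3 ppm, without overlap, with WT embryos on 3 ppm at 7.14 to 15.6%.

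The same tile test in the other genotypes called 5 tiles higher and 11 lower of 79755 in HET embryos (5 against 3), and 3 higher and 26 lower of 57431 in WT embryos (2 against 4, without the library labelled WT 30 ppm replicate 2). With that library WT had 0 called tiles. With so few embryos, the calls in HET and WT rest in part on a dispersion common to all tiles, not on the spread between embryos alone. The median difference over tiles was -0.986 points in HET, beside -0.702 points in KO. In WT it was -0.169 points without that library and +0.593 points with it. These differences between genotypes were not tested.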
